A study of Mus musculus with 30 samples.

Results

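The comparison set the colon of 5 mice labelled XBP1IEC-KO;Casp8IEC-KO, here called the double knockout, against the colon of 5 mice labelled WT. Both groups were taken by genotype label, and together they are 10 of the 30 libraries of the series. The groups and gene lists were chosen with earlier results of these data known. By the labels, Xbp1 and Casp8 were both deleted in intestinal epithelial cells (IEC), the cells that line the gut, and the WT mice are labelled with neither. The sources used here do not give the Cre driver, the deleted exons, the strain, the age or any treatment. Each library was made from 2 µg of total RNA of 1 mouse with an RNA integrity number above 7, and reads are tags near the 3′ ends of transcripts. RNA was taken from colon tissue, so that the epithelium was measured together with muscle, nerve, vessel and immune cells, which are not the cells the genotype label names. The other 20 libraries, of 4 further genotypes, entered the model for its estimate of the spread between mice. They also took part in the filter on low counts and the scaling of library totals.

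XBP1 is a transcription factor made active by the endoplasmic reticulum (ER) stress sensor IRE1, and it drives genes that fold, modify and export secreted proteins. Goblet cells and plasma cells, which secrete mucin and antibody, lean on it heavily. Caspase-8 is the protease that starts apoptosis below death receptors such as TNFR1. It also cleaves RIPK1 and RIPK3 and so holds back necroptosis, a lytic death in which RIPK3 phosphorylates MLKL. In the gut, loss of epithelial cells opens the barrier to bacteria, and interferons, TNF and neutrophil-drawing chemokines are typical responses of the tissue to that.

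The main features of the double knockout were higher levels of antibody, antigen presentation, interferon gamma, antimicrobial and cholesterol synthesis genes, and lower levels of smooth muscle, matrix and enteric nerve genes. Of 15470 genes tested, 3298 (21.3%) differed at an adjusted p under 0.05. Of these 1720 (11.1% of those tested) were higher and 1578 (10.2%) lower. At least 2-fold higher were 524 (3.39%), and at least 2-fold lower 450 (2.91%). The 5 double knockout libraries lay wholly above the 5 WT libraries for 1013 genes (6.55%) and wholly below for 1026 (6.63%). With library totals in place of TMM scaling, 1338 genes were higher and 1931 lower, and the median of all genes moved from 0.01 to −0.05 on the log2 scale. Levels are in CPM, counts per 1e+06 reads with each library's total scaled by TMM. Each ± after a log2 fold change (double knockout minus WT) is its standard error with 5 mice in each group, and adjusted p is from edgeR's quasi-likelihood F test over all genes tested. In RNA from whole tissue, fewer cells of a type and less RNA per cell cannot be told apart, and this holds for every cell type named.

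**Figure D1:**
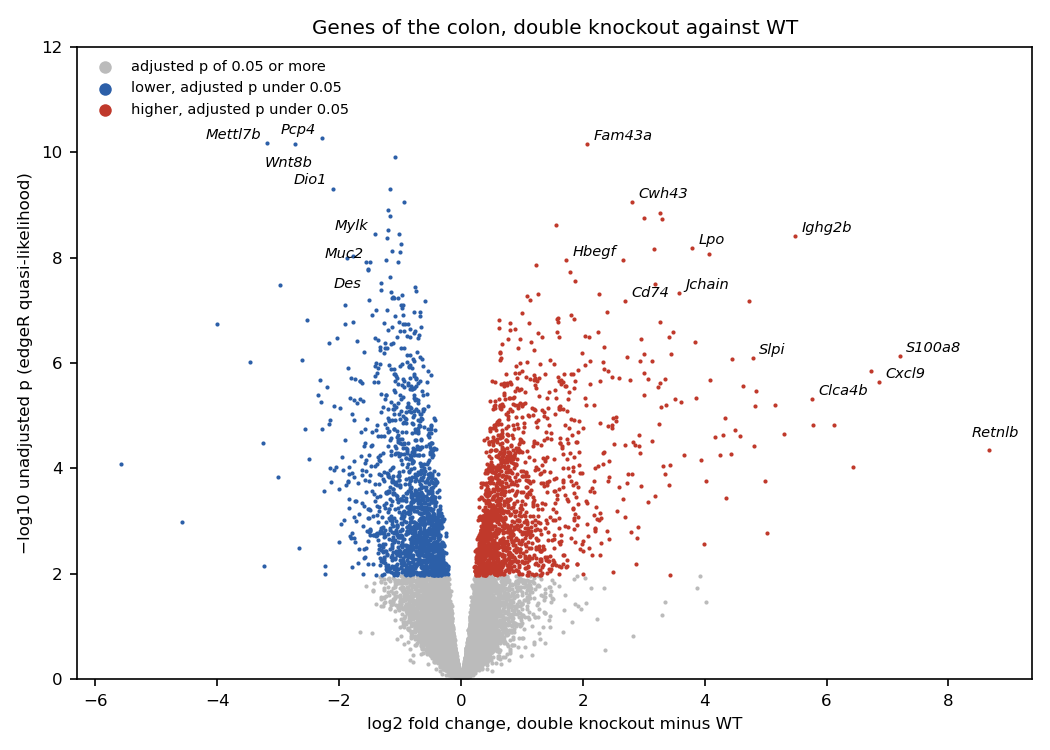
Each point is 1 of the 15470 genes tested, placed by its log2 fold change (double knockout minus WT, horizontal) and the −log10 of its unadjusted p from edgeR's quasi-likelihood test (vertical). Red marks the 1720 genes called higher and blue the 1578 called lower. Mettl7b, Wnt8b and Pcp4 lie highest among the blue points, at −3.18, −2.72 and −2.29 on the horizontal axis.

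Library totals were 3693330 to 4445924.8 reads in WT and 4178825.8 to 5823059.7 in the double knockout, so that 1 read was worth 0.172 to 0.271 CPM. Defining genes of the labelled tissue were present in every library, with the epithelial adhesion protein Epcam at 901 to 1029 CPM in WT and 1092 to 1555 in the double knockout and the intestinal factor Cdx1 at 226 to 279 CPM in WT and 267 to 364 in the double knockout. The stomach list had 0 of 10 members above the low-count filter. Mitochondrially encoded reads were 15.98 to 18.8% in WT and 15.997 to 19.2% in 4 double knockout libraries, and 10.3% in double knockout replicate 1. Immunoglobulin reads took 0.0377 to 0.146% of the WT libraries, 0.236% of double knockout replicate 2 and 1.01 to 1.49% of the other double knockout libraries. Xist and Y-linked reads marked replicate 3 as the female library of each group. The spread between mice was wider in the double knockout, with a median SD of 0.301 on the log2 CPM scale against 0.231 in WT, and of 0.258 without double knockout replicate 1. That library stood apart from its group. Its reads differed from those of the other double knockout libraries by 33.01 to 52.7 times counting noise, taken as the mean squared difference over genes relative to a Poisson count. Pairs among the other 4 differed by 7.44 to 14.9 times, and WT pairs by 3.25 to 9.27 times. Without it 3084 genes differed, against 3298 with it.

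Of the 10 falls with the smallest p, 4 were genes of the smooth muscle list, Pcp4, Atp2b4, Pgm5 and Cald1, and the last 3 are given with that list below. Pcp4, a small IQ-motif protein, was at 34.3, 44.6, 33.5, 39.6 and 29.4 CPM in WT replicates 1 to 5 and at 6.38, 10.5, 6.77, 8.90 and 5.01 CPM in double knockout replicates 1 to 5. The groups did not overlap, and the log2 fold change was −2.29 ± 0.234, adjusted p = 2.65e-07. Mettl7b, a membrane-bound methyltransferase, was at 35.7, 58.1, 46.6, 56.1 and 63.9 CPM in WT and 7.03, 7.67, 7.37, 2.47 and 3.64 CPM in the double knockout (−3.18 ± 0.329, adjusted p = 2.65e-07). Wnt8b, a Wnt ligand, was at 27.1, 28.4, 29.6, 22.1 and 29.9 CPM in WT and at 3.27, 6.90, 3.98, 5.44 and 1.59 CPM in the double knockout (−2.72 ± 0.281, adjusted p = 2.65e-07). For Mettl7b and Wnt8b too every double knockout library was below every WT library. Nrp2, a co-receptor for semaphorins and VEGF, was at 125 to 159 CPM in WT and 58.2 to 70.1 in the double knockout (−1.08 ± 0.115), and no libraries overlapped. Dio1, which converts thyroxine to the active thyroid hormone, (−2.10 ± 0.237) and Ddr2, a collagen receptor of mesenchymal cells, (−1.16 ± 0.139) fell as well. On the other side, Fam43a was at 11.004, 7.59, 8.04, 9.32 and 8.06 CPM in WT and 54.8, 27.9, 22.9, 44.5 and 35.5 CPM in the double knockout (2.07 ± 0.215, adjusted p = 2.65e-07). Cwh43 (2.81 ± 0.325), Ddah1, which breaks down methylarginines, (3.002 ± 0.359) and Emp1, an epithelial membrane protein, (1.56 ± 0.189) rose with groups that did not overlap. Emp1 stood at 43.1 to 77.1 CPM in WT and 149 to 187 in the double knockout. SPATA24 and Mzb1 overlap in the genome and held nearly the same values (3.27 ± 0.388 and 3.30 ± 0.395), so that their reads cannot be assigned to 1 of them.

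The targeted genes and the other death genes come next. Tags of Casp8 (GRCm38 chromosome 1, 58795374 to 58847503, plus strand) were at 51.5, 52.4, 52.4, 58.7 and 52.8 CPM in WT and 35.6, 21.98, 32.5, 46.2 and 43.3 CPM in the double knockout. Every double knockout library lay below every WT library, and the difference did not pass the test (−0.58 ± 0.227, adjusted p = 0.0678). It passed in a fit of only the 10 libraries compared, at −0.59 on the log2 scale. Tags of Xbp1 (chromosome 11, 5520659 to 5525893, plus strand) were at 100.1, 75.4, 94.9, 60.3 and 52.8 CPM in WT and 106, 97.4, 108, 139 and 70.4 CPM in the double knockout, and the groups overlapped (0.44 ± 0.2, adjusted p = 0.115). Since 3′ tags can lie outside the deleted exons and only the epithelium carries the deletions by label, these levels are no measure of either deletion. Within 20 Mb of Casp8, 23.8% of 227 genes differed, and within 20 Mb of Xbp1, 27.4% of 135, against the 21.3% of all genes.

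Of 10 further necroptosis genes 5 rose and 0 fell, where 11.1% of all genes tested rose and 10.2% fell, with a median log2 fold change of 0.30 against 0.01 for all genes tested. Ripk3, the kinase that acts on MLKL, was at 6.60, 6.87, 8.50, 8.85 and 10.9 CPM in WT and 24.2, 28.4, 27.3, 36.6 and 21.6 CPM in the double knockout. The highest WT library stayed below the lowest double knockout library (1.72 ± 0.302, adjusted p = 0.000154). Zbp1, a sensor of Z-form nucleic acids that can engage RIPK3, was at 4.62, 6.40, 5.74, 9.78 and 5.20 CPM in WT and 47.1, 27.9, 12.1, 72.9 and 47.4 CPM in the double knockout (2.70 ± 0.73, adjusted p = 0.00828). Double knockout replicate 3 was the lowest of its group for Zbp1 and replicate 4 the highest. Ripk1 (−0.04), Fadd (−0.17) and Cflar (−0.03), the adaptor and regulators that sit with caspase-8 in its complex, did not pass. The remaining calls of the list were less firm. Mlkl (1.29 ± 0.43, adjusted p = 0.03), Tnfaip3 and Tradd lost theirs under several alternatives, and 2 members were left without WT replicate 4 and 3 without WT replicates 1 or 3 or double knockout replicates 1 or 4.

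Of 25 apoptosis genes 8 rose and 0 fell, with a median of 0.35, and 5 rose without double knockout replicate 4. Birc3, an inhibitor of apoptosis, was at 33.9, 37.7, 28.95, 24.9 and 26.8 CPM in WT and 57.9, 51.1, 41.8, 62.8 and 42.6 CPM in the double knockout (0.75 ± 0.168, adjusted p = 0.00179). The groups did not overlap. The pore-former Bak1, which opens the outer mitochondrial membrane, was at 40.3, 37.5, 36.1, 37.5 and 47.05 CPM in WT and 63.9, 56.5, 51.2, 80.1 and 54.9 CPM in the double knockout (0.63 ± 0.164, adjusted p = 0.00644), again with no overlap. Bcl2 (0.13) and Casp9 (−0.11) did not pass. Of 20 pyroptosis and inflammasome genes 6 rose and 4 fell. The inflammasome adaptor Pycard (0.47 ± 0.0857), the inflammatory caspases Casp1 (0.51 ± 0.134) and Casp4 (1.27 ± 0.245), the pore-former Gsdmd (0.92 ± 0.2) and the cytokine Il1b (4.29 ± 0.864) were among the rises. The fallers were Il18 (−0.73 ± 0.205) and the gasdermin C genes of the colon epithelium. Gsdmc4 was at 804, 775, 711, 781 and 1043 CPM in WT and 195, 558, 558, 228 and 153 CPM in the double knockout (−1.28 ± 0.238, adjusted p = 0.000289). No libraries overlapped between the groups, and double knockout replicates 2 and 3 were the least reduced. Gsdmc2 (−1.43 ± 0.247) and Gsdmc3 (−1.77 ± 0.265) are close copies of it, and reads may be split between them.

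Genes known to answer to interferon gamma were higher. Of 19 interferon-inducible GTPases, which attack the vacuoles of microbes inside cells, 13 passed the low-count filter. Of these 13 genes 11 rose and 0 fell, with a median of 2.21, and 7 rose without double knockout replicate 4. Gbp2 was at 15.2, 12.8, 18.4, 23.1 and 30.7 CPM in WT and 150.1, 64.9, 29.7, 461 and 269.6 CPM in the double knockout (3.29 ± 0.61, adjusted p = 0.000287). The groups overlapped in 1 library, double knockout replicate 3, which was below WT replicate 5. Igtp was at 7.92, 2.84, 8.96, 5.36 and 14.3 CPM in WT and 44.5, 30.9, 10.8, 156 and 114 CPM in the double knockout (3.18 ± 0.79, adjusted p = 0.00431), again with replicate 4 highest and replicate 3, which lay below WT replicate 5, lowest. Of 18 interferon gamma chemokines and effectors 15 passed the filter, and of these 12 rose and 0 fell (median 2.43). The filter keeps genes that are high in any group, so these shares and medians are no measure of the GTPase and chemokine lists. Summed over the 18 genes the chemokine list stood at 178 to 210 CPM in WT and 262 to 862 in the double knockout, and the GTPase sums are given below. Cxcl9, which draws CXCR3-bearing T cells, was at 0, 0, 0, 0.233 and 1.04 CPM in WT and 12.3, 7.92, 4.58, 82.1 and 48.1 CPM in the double knockout (6.86 ± 1.19, adjusted p = 0.000143). It was nearly absent from WT and was present in all 5 double knockout libraries. Ido1, which breaks down tryptophan, (4.62 ± 0.809), Ccl5 (3.44 ± 0.554) and Wars, a tryptophanyl-tRNA synthetase, (1.46 ± 0.239) rose too. Ifng itself was not tested, with 0 and 15 reads over the 5 WT and the 5 double knockout libraries.

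Antigen presentation moved the same way. Of 20 MHC class I and immunoproteasome genes 17 rose (median 1.39) and of 13 MHC class II genes 8 rose (median 1.86), and 0 fell in either list. B2m, the light chain of MHC class I, was at 583, 444, 605, 531 and 523 CPM in WT and 1837, 962, 1032, 2817 and 2309 CPM in the double knockout (1.74 ± 0.437, adjusted p = 0.00472), with no overlap. Psmb8, a catalytic subunit of the immunoproteasome, was at 21.6, 20.9, 20.9, 28.2 and 31.2 CPM in WT and 137, 53.2, 58.6, 259 and 195 CPM in the double knockout (2.52 ± 0.521, adjusted p = 0.000869). Tap1, which pumps peptides into the ER, (2.74 ± 0.627) and Nlrc5, the class I transactivator, (3.93 ± 0.859) rose, as did the class II transactivator Ciita (1.86 ± 0.505). Cd74, the class II invariant chain, was at 51.9, 53.6, 89.4, 52.9 and 96.4 CPM in WT and 478, 146, 279.8, 840.3 and 483 CPM in the double knockout, and the lowest double knockout library, replicate 2, was above every WT library (2.69 ± 0.384, adjusted p = 1.72e-05). Class I genes such as H2-D1 (1.53 ± 0.332) and H2-Q7 (3.66 ± 0.786) are near-identical copies and may exchange reads. Immune cell genes rose beside these lists, 19 of 28 tested monocyte and macrophage genes and 16 of 20 plasma cell genes, where 11.1% of all genes tested rose. Of 37 T and NK cell genes 16 passed the low-count filter, and 13 of these rose. That filter keeps genes that are high in any group, so this last share is no measure of the list. Summed, the monocyte and macrophage genes stood at 1267 to 1513 CPM in WT and 2031 to 3956 in the double knockout, and the other sums are given below. Their part in the result was not tested.

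The stretches of DNA before the start sites of several of these genes are shown because they hold the letters that interferon-activated factors are known to bind. The interferon-stimulated response element (ISRE) was searched as GAAA, any 2 bases and GAAA, and the gamma-activated site (GAS) as TTCNNNGAA, on both strands of the 250 bases before each start in the RefSeq promoters of GRCm38.p6. The sterol response element was searched as TCACNCCAC, and the CArG box, bound by serum response factor, and the kappaB element by their usual consensus. The first 2 motifs can share bases. Each stretch of 30 bases reads 5′ to 3′ on the strand of its gene, with the matching letters in capitals.
Igtp (chr11:58199506-58199535, plus strand; GAS then ISRE): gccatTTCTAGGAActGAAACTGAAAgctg
Irgm2 (chr11:58214898-58214927, plus strand; GAS then ISRE): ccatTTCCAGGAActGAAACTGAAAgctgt
Gbp2 (chr3:142620594-142620623, plus strand; ISRE): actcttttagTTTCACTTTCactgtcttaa
Gbp3 (chr3:142559989-142560018, plus strand; ISRE): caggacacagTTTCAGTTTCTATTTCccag
Gbp7 (chr3:142530273-142530302, plus strand; ISRE): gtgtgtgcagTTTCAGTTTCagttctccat
B2m (chr2:122147538-122147567, plus strand; ISRE): ataagaacatGAAACTGAAAatgggaaagt
Cxcl10 (chr5:92349083-92349112, minus strand; ISRE): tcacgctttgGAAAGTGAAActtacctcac
Psmb8 (chr17:34198088-34198117, plus strand; GAS): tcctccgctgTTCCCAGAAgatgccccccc
Myl9 (chr2:156775293-156775322, plus strand; CArG box): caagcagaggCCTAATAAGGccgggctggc
Hmgcs1 (chr13:119690204-119690233, plus strand; sterol response element): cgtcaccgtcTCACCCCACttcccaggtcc

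Igtp and Irgm2, neighbours on chromosome 11, each hold both motifs within the stretch shown, and rose by 3.18 ± 0.79 and 2.20 ± 0.635 on the log2 scale. The match runs on the other strand in the Gbp genes, where it reads as its reverse complement. Promoters on chromosome 18 were left out of the search. Over the interferon GTPase, chemokine and both MHC lists, 12 of 48 promoters (25%) held the ISRE, against 2.98% of all 32851 promoters searched. The GAS was in 6 (12.5%), against 7.02%, and a kappaB element in 15 (31.2%), against 7.25%. For these lists 44 of 61 genes tested were matched to a promoter, and Cd74, on chromosome 18, could not be. Among type I interferon stimulated genes 11 of 27 promoters (40.7%) held the ISRE, 4 (14.8%) the GAS and 5 (18.5%) a kappaB element. In the NF-kB and neutrophil-drawing cytokine lists 13 of 30 promoters (43.3%) held a kappaB element, 4 (13.3%) the GAS and 0 the ISRE. The CArG box was in 3 of 29 smooth muscle promoters (10.3%, against 1.47%) and the sterol response element in 1 of 18 cholesterol synthesis promoters (5.56%, against 1.05%). The promoters with a CArG box were those of Myl9 and, at alternative starts, of Ldb3, a gene that did not pass (−0.19). A kappaB element was in more promoters of both lists, in 4 of 29 (13.8%) and 3 of 18 (16.7%), so that the motif known for a list was not always its most frequent. Of the promoters of all genes tested 2.63% held the ISRE, 5.75% the GAS and 8.98% a kappaB element. These are matches of letters and a description only. Of the genes shown, Irgm2 lost its call without double knockout replicate 4 (adjusted p = 0.0544), as did Gbp3 (0.107), Gbp7 (0.0912) and Hmgcs1 (0.108), and the last 3 lost theirs without other libraries as well. Cxcl10 (4.99 ± 1.17) and Myl9 (−1.06 ± 0.196) kept theirs under every alternative.

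Type I interferon stimulated genes were less clear. Their median log2 fold change was 1.32, yet 4 of 32 rose and 0 fell, and the number that rose was between 1 and 20 under the alternatives. It was 20 in the fit of only the 10 libraries compared, and 1 without any of WT replicates 1, 2, 3 and 5 or double knockout replicates 4 and 5. In this list the double knockout libraries spread widely, for example at 22.4, 74.1, 3.58, 68.003 and 47.1 CPM for Ifit1, an antiviral RNA-binding protein that was at 5.06, 2.37, 3.68, 3.96 and 4.42 CPM in WT. Double knockout replicate 3 was within the WT range, and the call of Ifit1 (adjusted p = 0.0498) was lost under 11 alternatives.

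**Figure D2:**
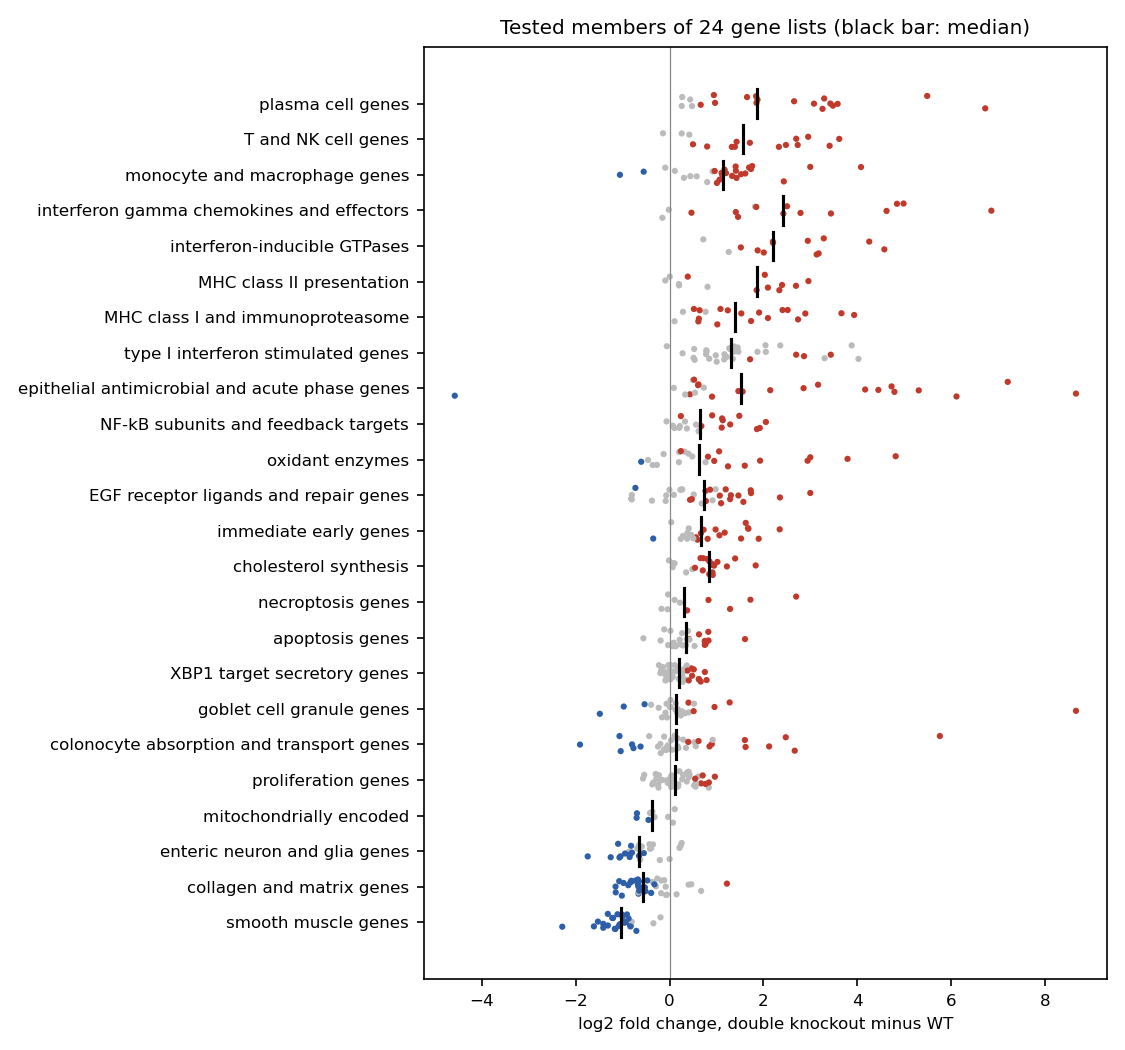
Each point is a tested member of the list named at the left, placed by its log2 fold change (double knockout minus WT), in red where it was called higher, blue where lower and grey where neither. The black bar is the median of the list, which runs from 2.43 for interferon gamma chemokines and effectors to −1.04 for smooth muscle genes.

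TNF and NF-kB target genes rose together with some of the cytokines that draw neutrophils. Tnf, the ligand of TNFR1, was at 0, 0, 0.46, 0.932 and 1.56 CPM in WT and 12.1, 6.90, 5.97, 25.96 and 17.1 CPM in the double knockout (4.51 ± 0.895, adjusted p = 0.000574). It rests on few reads in WT, and the groups did not overlap. Its receptor Tnfrsf1a rose little (0.45 ± 0.129, adjusted p = 0.0122). Of 20 NF-kB subunits and feedback targets 11 rose and 0 fell (median 0.65), and 7 rose without WT replicate 2, double knockout replicate 4 or double knockout replicate 5. Nfkbia, the inhibitor that NF-kB induces against itself, was at 317, 241, 217, 234 and 229.5 CPM in WT and 447, 429, 342, 583 and 524 CPM in the double knockout (0.91 ± 0.151, adjusted p = 9.65e-05). Zc3h12a, an RNase that cuts cytokine mRNAs, (1.86 ± 0.276, adjusted p = 2.87e-05) and Tnip3, a partner of A20, (1.92 ± 0.323, adjusted p = 0.000111) rose as well. The list of neutrophil-drawing cytokines and chemokines also holds Osmr, the oncostatin M receptor, and the prostaglandin enzymes Ptgs2 and Ptges. Of its 25 members 10 were tested. The low-count filter keeps genes that are high in any group, so the share that rose is no measure of the list. Of these 10 genes 6 rose, among them the chemokine Cxcl1 (2.91 ± 0.824, adjusted p = 0.0112), the cytokine Il1b (4.29 ± 0.864, adjusted p = 0.000659) and Osmr (1.06 ± 0.255, adjusted p = 0.00321). Among the untested, Il11 had 6 and 35 reads and Il23a 18 and 8 over the 5 WT and the 5 double knockout libraries. Il6 was not tested, with 1 and 0 reads over the 5 WT and the 5 double knockout libraries. Of 23 immediate early genes 14 rose and 1 fell, with Fosb (2.35 ± 0.393, adjusted p = 0.000104), Egr1 (1.62 ± 0.303, adjusted p = 0.000298) and Ier2 (0.81 ± 0.141, adjusted p = 0.000143) among the rises, and 9 rose without WT replicate 4. Among STAT and SOCS genes 9 of 19 rose and 1 fell. Socs1, which shuts off interferon receptors, rose (3.24 ± 0.568, adjusted p = 0.000157), and Socs2, which acts on growth hormone signalling, was at 107 to 126 CPM in WT and 61.8 to 86.7 in the double knockout (−0.62 ± 0.133, adjusted p = 0.0012).

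Of 38 antimicrobial and acute phase genes 24 passed the low-count filter, and of these 18 rose and 1 fell, with a median of 1.51. That filter keeps genes that are high in any group, so neither the share nor the median is a measure of the list. Summed over the 38 genes the range was 9387 to 12798 CPM in WT and 12555 to 21874 in the double knockout, and the groups overlapped. The list was drawn up for the epithelium, but S100a8 and S100a9, which neutrophils make in quantity, are on it and on the neutrophil list, and both rose. The neutrophil genes, given below, rose beside it, and their part in the result was not tested. Slpi, a protease inhibitor of mucosal surfaces, was at 10.3, 9.01, 10.3, 24.2 and 18.98 CPM in WT and 499.9, 140.3, 535, 449 and 390.1 CPM in the double knockout (4.79 ± 0.781, adjusted p = 8.01e-05). Double knockout replicate 2 was the lowest of its group and still above every WT library. Serpina3n, an acute-phase protease inhibitor, was at 6.16, 7.82, 8.50, 6.06 and 14.8 CPM in WT and 98.4, 22.8, 45.6, 98.9 and 120.2 CPM in the double knockout (3.16 ± 0.403, adjusted p = 4.69e-06). Retnlb, a goblet cell lectin-like protein that damages bacterial membranes, had 0 reads in every WT library and 9.65, 3.58, 13.9, 16.8 and 14.3 CPM in the double knockout. Against a floor of 3 reads over the WT group (0.145 CPM) its mean of 11.7 CPM was at least 80.4-fold higher. With Retnlb at that bound the median of the list stays at 1.51. The faller, Reg3b, was at 0, 0.237, 141, 3.03 and 0 CPM in WT, with nearly all reads in 1 library, and without WT replicate 3 its call ended and its log2 fold change was 0.53. Of 22 oxidant genes 11 rose and 1 fell. Lpo, a peroxidase, was at 0.88, 0.948, 1.15, 1.40 and 1.04 CPM in WT and 27.1, 15.3, 15.5, 9.89 and 8.20 CPM in the double knockout (3.79 ± 0.482, adjusted p = 4.57e-06). Duox2, an epithelial hydrogen peroxide source, rose (1.93 ± 0.386, adjusted p = 0.000609) together with its maturation factors Duoxa1 (2.94 ± 0.484, adjusted p = 8.68e-05) and Duoxa2 (3.0 ± 0.484, adjusted p = 7.09e-05). Gpx1, which removes peroxide, was at 312 to 376 CPM in WT and 179.8 to 283 in the double knockout (−0.60 ± 0.119, adjusted p = 0.000521).

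Antibody genes were higher in all 5 double knockout mice. Of 20 plasma cell genes 16 rose and 0 fell, with a median of 1.86, and summed they stood at 1275, 572, 723, 1007 and 1032 CPM in WT and 7243, 2444, 10412, 10412 and 7031 CPM in the double knockout. Replicate 2 was the lowest of the double knockout libraries and still above the highest WT library. Igha, the IgA heavy chain constant region of mucosal antibody, was at 842, 237, 347, 646 and 712 CPM in WT and 5946, 1709, 8766, 8704 and 5960.1 CPM in the double knockout (3.48 ± 0.533, adjusted p = 3.8e-05). Jchain, which joins IgA into dimers, was at 78.1, 18.96, 35.8, 62.7 and 54.6 CPM in WT and 512, 205, 870.3, 923 and 490.1 CPM in the double knockout (3.58 ± 0.501, adjusted p = 1.52e-05). Ighg2b, an IgG heavy chain, was at 1.32, 0.474, 3.22, 1.16 and 3.64 CPM in WT and 134, 17.6, 138, 49.95 and 99.7 CPM in the double knockout (5.49 ± 0.681, adjusted p = 3.15e-06). Prdm1, the master factor of plasma cells, (1.85 ± 0.326) and Irf4 (1.87 ± 0.324), which works with it, rose. Derl3, which removes misfolded ER proteins in secretory cells, was at 0.233 to 1.19 CPM in WT and 1.53 to 11.1 in the double knockout (3.08 ± 0.53). Of 10 immunoglobulin segments tested 8 rose and 0 fell. Of 24 B cell and follicle genes 6 rose and 1 fell, and the members that rose include the light chains Igkc (3.42 ± 0.53) and Iglc2 (3.26 ± 0.634) that plasma cells make too. The B cell surface protein Ms4a1 (0.44, 0.237, 9.65, 0 and 8.58 CPM in WT and 0.491, 7.92, 5.38, 4.95 and 2.73 CPM in the double knockout) did not pass, and WT replicates 3 and 5 held more Ms4a1 than any double knockout library.

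T cell and myeloid genes were higher too, on few reads. Of 37 T and NK cell genes 16 passed the low-count filter, and 13 of these rose and 0 fell. The filter keeps genes that are high in any group, so this share is no measure of the list. With no filter 25 of 37 rose, and 22 by DESeq2. Summed over the list the range was 56.8 to 96.2 CPM in WT and 98.2 to 229 in the double knockout. Icos, a co-stimulator of T cells, was at 1.10, 0.948, 1.61, 0.932 and 1.56 CPM in WT and 8.99, 5.11, 4.18, 11.9 and 11.4 CPM in the double knockout (2.73 ± 0.444, adjusted p = 7.85e-05). The T cell receptor constant genes Trac (3.62 ± 0.661) and Trbc2 (2.70 ± 0.56) rose, and Cd8a was not tested, with 3 and 20 reads in WT and the double knockout. Of 22 neutrophil genes 4 were tested and rose, and with no filter 13 of 22 rose. S100a8, an alarmin subunit of neutrophils, was at 0, 0.237, 0, 1.40 and 0 CPM in WT and 32.1, 4.60, 7.57, 152 and 69.004 CPM in the double knockout (7.21 ± 1.17, adjusted p = 7.54e-05), with replicate 4 the highest and replicate 2 the lowest. Mpo, a granule enzyme made in immature neutrophils, had 0 and 1 reads, Cxcr2, the receptor that guides neutrophils, 0 and 33, and Retnlg 3 and 102 reads in the 5 WT and the 5 double knockout libraries.

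Of 28 monocyte and macrophage genes 19 rose and 2 fell (median 1.15). Ly6c2, a marker of inflammatory monocytes, was at 1.10, 1.19, 0.919, 1.40 and 1.04 CPM in WT and 17.8, 6.90, 28.1, 26.7 and 17.99 CPM in the double knockout (4.08 ± 0.704, adjusted p = 0.00014). Ccr2, which brings monocytes into tissue, (1.33 ± 0.295, adjusted p = 0.00164), the Fc receptor Fcgr4 (2.999 ± 0.538, adjusted p = 0.000204) and Ms4a7 (1.62 ± 0.25, adjusted p = 4.3e-05) rose. The falls were Cd163, a haemoglobin scavenger receptor of resident macrophages, at 14.3 to 25.2 CPM in WT and 6.57 to 12.9 in the double knockout (−1.06 ± 0.297, adjusted p = 0.0108), and Mertk, which serves the uptake of dead cells (−0.55 ± 0.148, adjusted p = 0.0077). Csf1r (0.31), Mrc1 (0.11) and Adgre1 (0.44), shared by most macrophages, did not pass. Of 19 complement genes 11 rose and 2 fell. C4b rose (1.37 ± 0.233, adjusted p = 0.000122), and Cd59a, which shields cells from the membrane attack complex, was at 70.9, 69.9, 74.9, 70.1 and 44.7 CPM in WT and 39.1, 22.8, 30.3, 32.1 and 36.2 CPM in the double knockout (−1.04 ± 0.181, adjusted p = 0.000147), with no overlap.

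**Figure D3:**
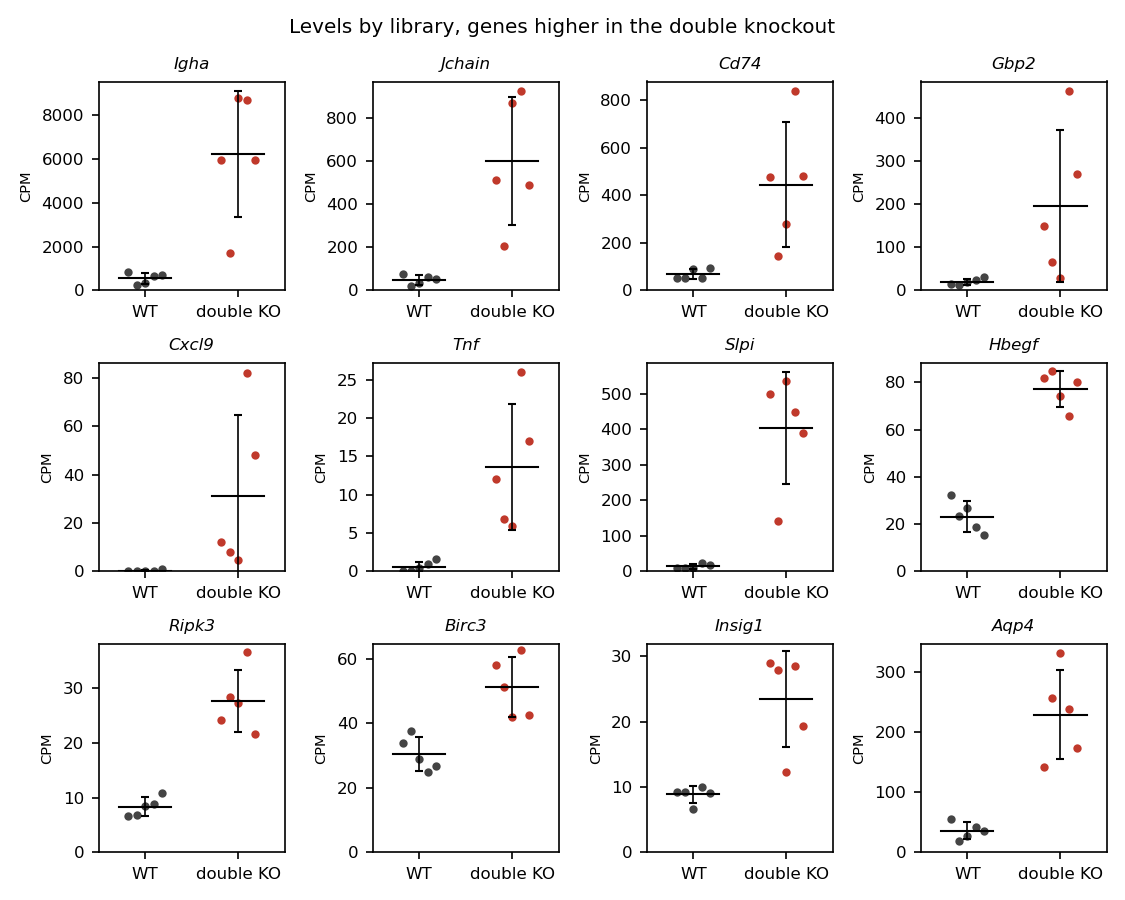
Levels of 12 genes in CPM on a linear axis from 0, by library. Each point is 1 mouse, the bar is the mean and the whisker the SD of 5 mice. Igha, Jchain, Cd74, Cxcl9, Tnf, Slpi, Hbegf, Ripk3, Birc3, Insig1 and Aqp4 show no overlap between WT and the double knockout, and Gbp2 overlaps in 1 library.

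Smooth muscle genes fell nearly throughout. Of 28 members 25 fell and 0 rose, and 24 had no overlap between the groups (6.63% of all genes lay wholly below WT). For this list the median was −1.04, between −1.17 and −1.002 under the alternatives. Summed, the list stood at 19278, 18173, 16703, 19785 and 14766 CPM in WT and 8768, 10376, 7993, 7232 and 8329.9 CPM in the double knockout. Des, the intermediate filament of muscle, was at 865, 777, 738, 875 and 688 CPM in WT and 306, 359, 271, 178 and 254 CPM in the double knockout (−1.53 ± 0.203, adjusted p = 7.02e-06). Myh11, the smooth muscle myosin heavy chain, was at 2359, 2090.5, 1616, 2218 and 1597 CPM in WT and 776, 1167, 789.9, 799.7 and 908 CPM in the double knockout (−1.15 ± 0.182, adjusted p = 5.13e-05). Mylk, the kinase that starts contraction by phosphorylating myosin light chain, was at 2457, 2466, 2181, 2677 and 2156 CPM in WT and 897, 1175, 970.3, 619 and 823 CPM in the double knockout (−1.41 ± 0.174, adjusted p = 3.04e-06). Cald1, a brake on actomyosin, (−1.02 ± 0.126), the plasma membrane calcium pump Atp2b4 (−1.17 ± 0.132) and Pgm5, of the dense plaques of smooth muscle, (−1.20 ± 0.142) fell as well. The calcium channel Cacna1c, which is not on the list and was also among the 10 falls with the smallest p, fell too (−1.20 ± 0.147). Acta2, smooth muscle actin, fell by a little less (−0.94 ± 0.163). Members that did not pass were Mustn1 (−0.34), Hspb7 (−0.81) and Ldb3 (−0.19). Interstitial cells of Cajal are the pacemaker cells of the same muscle. Of their 7 genes 0 passed by edgeR and 0 by DESeq2, and under the other alternatives at most 2 fell (without WT replicate 5) and at most 1 rose (without double knockout replicate 1). By edgeR 2 had an unadjusted p under 0.05 (Kit and Etv1), and the median was −0.20. For Kit, their receptor tyrosine kinase, the values were 20.02 to 31.02 CPM in WT and 15.9 to 25.3 in the double knockout (−0.36 ± 0.156, adjusted p = 0.0953), and for Ano1, their chloride channel, 188 to 255 CPM in WT and 130.3 to 242 in the double knockout (−0.20 ± 0.121, adjusted p = 0.262).

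Matrix and nerve genes fell as well. Of 38 collagen and matrix genes 23 fell and 1 rose, with a median of −0.56. Fn1, fibronectin, was at 436, 493, 460.1, 495 and 383 CPM in WT and 273, 317, 254, 194 and 233 CPM in the double knockout (−0.83 ± 0.129, adjusted p = 4.3e-05), with no overlap. Timp2, a metalloproteinase inhibitor, (−0.98 ± 0.156, adjusted p = 5.83e-05) and the collagen VI chain Col6a2 (−0.73 ± 0.116, adjusted p = 6.63e-05) fell, while Pdgfra (0.15) and Col4a1 (−0.07) did not pass. Of 28 enteric neuron and glia genes 12 fell and 0 rose, with a median of −0.65. Nos1, the nitric oxide synthase of inhibitory motor neurons, was at 22.9, 22.05, 16.1, 16.8 and 15.6 CPM in WT and 6.21, 10.99, 10.2, 8.90 and 7.74 CPM in the double knockout (−1.10 ± 0.184, adjusted p = 0.000106). S100b, a glial calcium-binding protein, was at 10.3, 11.6, 12.9, 10.7 and 5.46 CPM in WT and 3.27, 3.58, 4.78, 2.47 and 0.911 CPM in the double knockout (−1.74 ± 0.3, adjusted p = 0.000136). Stmn2 (−1.25 ± 0.197, adjusted p = 4.98e-05) and Elavl4 (−0.82 ± 0.198, adjusted p = 0.00336), of neurons, fell too, and the neuropeptides Vip (−0.21) and Tac1 (0.21) did not pass. Of 24 vessel genes 2 rose and 3 fell, shares near the 11.1% and 10.2% of all genes tested. Lyve1, of lymph vessels, was at 91.1 to 123 CPM in WT and 37.6 to 66.6 in the double knockout (−0.99 ± 0.248, adjusted p = 0.00466), and Madcam1, the gut homing address on venules, rose (2.19 ± 0.514, adjusted p = 0.0027). The epithelial genes Epcam (0.42 ± 0.094), Krt19 (0.60 ± 0.121) and Lgals4 (0.44 ± 0.108) rose over the same libraries, and the part that the balance of muscle and mucosa had in these falls was not tested.

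**Figure D4:**
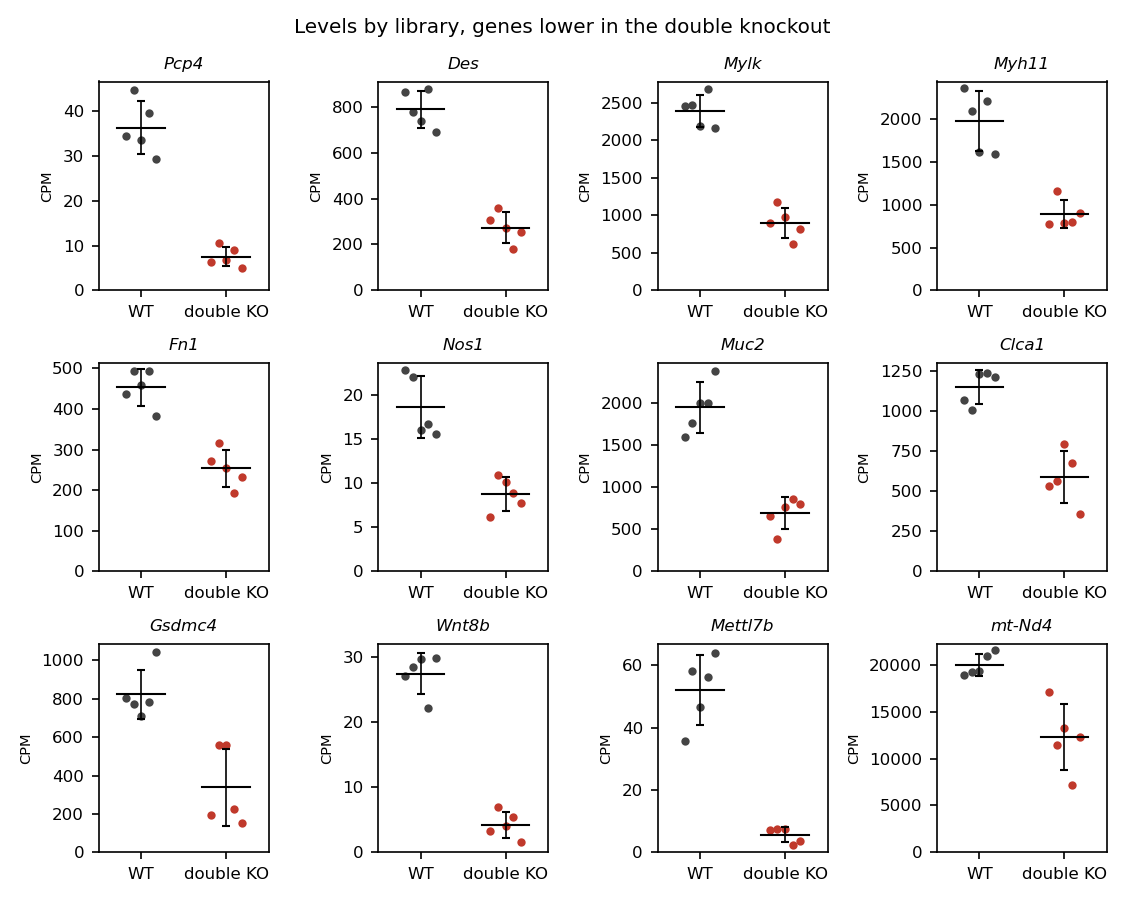
Levels of 12 genes in CPM on a linear axis from 0, by library. Each point is 1 mouse, the bar is the mean and the whisker the SD of 5 mice. For all 12 genes each of the 5 double knockout libraries lies below the 5 WT libraries, and mt-Nd4 in double knockout replicate 1, at 17071 CPM, comes nearest to WT.

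Goblet cell genes, where XBP1 is known to act, did not move as 1 group. Of 26 members 5 rose and 3 fell, with a median of 0.13, and 3 rose without double knockout replicate 1. Of all genes tested 11.1% rose and 10.2% fell, so that the falls, and the rises without that replicate, were near the shares of all genes. Muc2, the gel-forming mucin of the colon, was at 1597, 1765, 2009, 2002 and 2387 CPM in WT and 663, 391, 766, 867 and 798 CPM in the double knockout (−1.49 ± 0.194, adjusted p = 5.54e-06). Clca1, a protease that loosens the mucus, was at 1072, 1009, 1232, 1241 and 1213 CPM in WT and 535, 564, 795, 677 and 361 CPM in the double knockout (−0.98 ± 0.183, adjusted p = 0.000313). Both were lower in every double knockout library. Against these, Spink4, a goblet cell peptide, (1.28 ± 0.22, adjusted p = 0.000135) and Spdef, a transcription factor of goblet cell maturation, (0.96 ± 0.202, adjusted p = 0.00104) rose, and Tff3 (−0.09), Agr2 (−0.06), Zg16 (0.33) and Atoh1 (0.41) did not pass.

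Of 41 secretory genes known as XBP1 targets 10 rose and 0 fell, with a median of 0.20. Edem1, which sends misfolded glycoproteins to degradation, was at 43.1, 45.3, 43.2, 41.001 and 39.3 CPM in WT and 67.9, 53.4, 69.7, 87.3 and 57.6 CPM in the double knockout (0.66 ± 0.141, adjusted p = 0.00113). Herpud1, of the same disposal route, (0.75 ± 0.154) and Ssr4, of the translocon, (0.41 ± 0.0931) rose, whereas the targets Dnajb9 (−0.08), Sec61a1 (−0.23) and Pdia6 (−0.06) did not pass. Edem1 is also on the plasma cell list, and plasma cells are not the cells the genotype label names. The plasma cell list stood at 572 to 1275 CPM in WT and 2444 to 10412 in the double knockout, and its part in the XBP1 target result was not tested. Of 18 ER sensors and chaperones 4 rose and 0 fell. The number that rose was 8 without double knockout replicate 1, 2 without double knockout replicate 4 and 7 by limma voom. Manf, a secreted chaperone, rose (0.86 ± 0.205, adjusted p = 0.00287), and Hspa5, the main ER chaperone, was at 491, 487, 529.7, 446 and 543 CPM in WT and 436, 676, 852, 902 and 687 CPM in the double knockout, which did not pass (0.51 ± 0.23, adjusted p = 0.112). Of 18 ATF4 targets of the integrated stress response 7 rose and 0 fell (median 0.35). Asns, asparagine synthetase, was at 14.5, 12.1, 9.88, 16.5 and 12.7 CPM in WT and 36.1, 19.7, 27.7, 35.1 and 31.4 CPM in the double knockout (1.19 ± 0.19, adjusted p = 6.28e-05), and Slc7a11, a cystine importer, (1.68 ± 0.395, adjusted p = 0.00273) rose.

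Transport genes of surface colonocytes changed in both directions. Of 38 absorption and transport genes 10 rose and 6 fell, with a median of 0.13. Aqp4, a water channel, was at 55.9, 18.96, 26.9, 42.2 and 35.9 CPM in WT and 143, 257, 332, 238 and 175 CPM in the double knockout (2.67 ± 0.348, adjusted p = 5.54e-06). Slc9a3, the sodium-proton exchanger of the brush border, was at 11.4, 4.27, 2.76, 4.43 and 6.24 CPM in WT and 29.4, 34.5, 44.01, 25.5 and 30.1 CPM in the double knockout (2.48 ± 0.424, adjusted p = 0.000133). Clca4b rose most on this list (5.76 ± 1.04, adjusted p = 0.000229) together with Clca4a (2.12 ± 0.348, adjusted p = 8.6e-05), a close copy that may share reads with it. The sugar phosphate exchanger Slc37a2 was at 137, 119.9, 168, 172 and 187 CPM in WT and 39.4, 41.4, 51.8, 44.8 and 31.2 CPM in the double knockout (−1.91 ± 0.274, adjusted p = 1.9e-05). The sulfate transporter Slc26a2 (−0.80 ± 0.16, adjusted p = 0.000609) and the carbonic anhydrase Car1 (−1.04 ± 0.292, adjusted p = 0.0107) fell too. The electrolyte genes Slc26a3 (−0.19) and Cftr (0.15) did not pass. Levels of tags say nothing of transport itself.

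Keratin and junction genes of the epithelium were higher where they passed the test. Krt20, a keratin of differentiated surface cells, was at 355, 364, 388, 434 and 403 CPM in WT and 956, 929, 724, 1167 and 799.8 CPM in the double knockout (1.24 ± 0.163, adjusted p = 6.21e-06). Krt7 (0.78 ± 0.148, adjusted p = 0.000374) and Krt36 (3.31 ± 0.737, adjusted p = 0.00168) rose, and 5 of 10 keratins passed, all higher. Cldn4, a tight junction claudin, (1.20 ± 0.206, adjusted p = 0.00014) and Cldn7 (0.67 ± 0.158, adjusted p = 0.00271) rose, and 6 of 23 junction genes rose against 1 that fell, Mylk. Tgm3, a transglutaminase that crosslinks mucus in the colon, was at 1494, 1171, 1267, 1475 and 1835 CPM in WT and 552, 644, 507, 405 and 415 CPM in the double knockout (−1.52 ± 0.202, adjusted p = 7.02e-06). Mptx1, a pentraxin of the gut, (−2.20 ± 0.387, adjusted p = 0.000157) and Sycn (−1.90 ± 0.389, adjusted p = 0.000776), which is known from secretory granules, were lower in every double knockout library. Among abundant genes, the cytoskeletal actin Actb (0.57 ± 0.12, adjusted p = 0.00106), Plac8 (1.17 ± 0.218, adjusted p = 0.000295) and the regeneration marker Ly6a (2.35 ± 0.5, adjusted p = 0.00112) rose.

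Growth factor and repair genes rose in 16 of 32 cases, with 1 fall and a median of 0.73. Over all genes tested 11.1% rose and 10.2% fell. The 16 include Duoxa2, which is also on the oxidant list, and Cldn4, which is also on the junction list. Hbegf, a membrane-bound ligand of the EGF receptor, was at 32.1, 23.2, 26.7, 18.6 and 15.3 CPM in WT and 81.6, 84.9, 74.1, 65.5 and 80.2 CPM in the double knockout (1.73 ± 0.225, adjusted p = 5.54e-06), and the groups were well apart. Areg, another such ligand, rose (1.57 ± 0.389, adjusted p = 0.00409), as did Anxa1, an annexin of wound repair, (1.29 ± 0.214, adjusted p = 9.26e-05), whereas Egf (−0.37) and Btc (0.23) did not pass. Of 27 stem cell and WNT genes 3 rose, a share near the 11.1% of all genes tested, and 5 fell, where 10.2% of all genes did. With library totals in place of TMM 8 fell. Rspo3, a stromal amplifier of WNT signals, was at 18.9, 18.5, 22.8, 17.01 and 15.6 CPM in WT and 7.52, 8.44, 7.37, 6.92 and 10.2 CPM in the double knockout (−1.20 ± 0.229, adjusted p = 0.000398). Rgmb (−0.77 ± 0.117, adjusted p = 3.82e-05) and the WNT feedback gene Nkd1 (−0.99 ± 0.202, adjusted p = 0.00075) fell, Myc rose (1.51 ± 0.396, adjusted p = 0.00656), and Lgr5 (−0.46), Axin2 (0.37) and Ephb2 (0.23) did not pass. Of 43 proliferation genes 6 rose and 0 fell, where 11.1% of all genes tested rose and 10.2% fell. The median was 0.11, and 2 rose without double knockout replicate 4. The replication genes Mcm3 (0.77 ± 0.165, adjusted p = 0.00124) and Pcna (0.71 ± 0.181, adjusted p = 0.00549) passed, and Mki67 was at 133, 165, 109, 178 and 81.6 CPM in WT and 35.5, 135, 188, 136 and 77.2 CPM in the double knockout (−0.23). Of 17 enteroendocrine genes 4 rose and 1 fell. The hormones Sct, secretin, (1.78 ± 0.238, adjusted p = 7.55e-06) and Gcg (0.89 ± 0.165, adjusted p = 0.000276) rose, and Cpe, a prohormone peptidase that neurons also hold, fell (−0.93 ± 0.164, adjusted p = 0.000161).

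Cholesterol synthesis genes rose in 17 of 23 cases, each of the 17 with no overlap between the groups (6.55% of all genes lay wholly above WT), and 0 fell. The median was 0.85, between 0.75 and 0.88 under the alternatives, and 14 to 18 members rose. Insig1, which holds the SREBP factors in the ER when sterols are ample, was at 9.24, 9.24, 6.66, 10.02 and 9.10 CPM in WT and 28.9, 27.9, 12.3, 28.4 and 19.4 CPM in the double knockout (1.40 ± 0.279, adjusted p = 0.000605). Srebf2, the factor that drives the pathway, was at 120.2, 102, 96.7, 108 and 99.04 CPM in WT and 143, 189.7, 152, 204 and 144 CPM in the double knockout (0.66 ± 0.144, adjusted p = 0.0014). Pmvk, phosphomevalonate kinase, was at 19.6, 20.1, 14.5, 30.5 and 36.1 CPM in WT and 65.2, 37.8, 47.4, 78.1 and 52.4 CPM in the double knockout (1.22 ± 0.209, adjusted p = 0.000134). For all 3 genes the lowest double knockout library lay above the highest WT library. Nsdhl, which acts late in the pathway, rose too (0.95 ± 0.202, adjusted p = 0.00111), and Fdft1 (0.35) did not pass.

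Energy metabolism genes moved in both directions. Of 22 glycolysis and hypoxia genes 8 rose and 0 fell (median 0.40), and 5 rose without double knockout replicate 5. Ldha, lactate dehydrogenase, was at 418, 390.4, 404, 428 and 491 CPM in WT and 997, 609, 595, 776 and 730.4 CPM in the double knockout (0.80 ± 0.12, adjusted p = 3.08e-05), and the glucose transporter Slc2a1 rose (0.91 ± 0.161, adjusted p = 0.000163). Of 38 nuclear respiratory chain genes 13 rose and 0 fell, with a median of 0.24, among them Cyc1 (0.54 ± 0.0994, adjusted p = 0.000279) and Atp5a1 (0.46 ± 0.0951, adjusted p = 0.000822). There were 8 in a fit of only the 10 libraries and 7 without double knockout replicate 1. Of 9 mitochondrially encoded genes tested, of 15 listed, 3 fell and 0 rose. Summed, the list overlapped between the groups, at 153010 to 183480 CPM in WT and 97600 to 204770 CPM in the double knockout. Below the low-count filter were mt-Co2, with 1 and 0 reads, and mt-Co3, with 6 and 3 reads in WT and the double knockout. mt-Nd4, a complex I subunit, was at 18950.0, 19228, 19314, 20874 and 21538 CPM in WT and 17071, 11486, 13304, 7227 and 12332 CPM in the double knockout (−0.70 ± 0.182, adjusted p = 0.00608). Of 29 fatty acid oxidation and ketogenesis genes 0 rose and 3 fell, a share near the 10.2% of all genes that fell. Of 47 xenobiotic and steroid genes 8 rose and 9 fell. The falls included Aldh1a1, which makes retinoic acid, at 51.9 to 57.4 CPM in WT and 12.4 to 28.6 in the double knockout (−1.39 ± 0.202, adjusted p = 2.26e-05), and the glutathione transferase Gstt1 (−0.95 ± 0.14, adjusted p = 2.55e-05). These 2 counts ran from 4 to 8 and from 7 to 13 under the alternatives. Mt1, a zinc-binding metallothionein, was at 443, 674, 556, 724 and 567 CPM in WT and 1965, 1189, 1009.7, 1098 and 1589.8 CPM in the double knockout (1.21 ± 0.208, adjusted p = 0.000135), and the zinc importer Slc39a4 rose (1.07 ± 0.243, adjusted p = 0.00204).

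Other lists gave small counts, to be read beside the 11.1% of all genes tested that rose and the 10.2% that fell. Of 30 brush border and identity genes 9 rose and 3 fell, of 33 cytosolic ribosomal protein genes 4 rose and 0 fell, of 19 citric acid cycle genes 3 rose and 1 fell, and of 15 heat shock genes 1 rose and 1 fell. Of 11 TNF family genes 4 rose, of 11 matrix metalloproteinases 2 rose, and of 10 tuft cell genes 2 rose and 1 fell. Of tissues that could be carried along at dissection, 2 of 9 adipose genes fell, among them Adrb3, the adrenergic receptor of fat cells, (−1.48 ± 0.328, adjusted p = 0.00167), and 2 of 9 small intestine and Paneth cell genes fell. One of the last was Apoa1, at 0, 0.948, 78.4, 2.33 and 0.52 CPM in WT and 0.164, 4.60, 1.59, 0.989 and 1.82 CPM in the double knockout. Its difference rests on WT replicate 3, and without that library the log2 fold change was 0.86. Seminal vesicle genes below the low-count filter had reads in WT replicate 1 alone, with 92 for Svs2, 82 for Svs5 and 54 for Svs4, and 0 in every other WT and double knockout library. The 2 tested members of the prostate and seminal vesicle list did not pass. The pancreas list had 1 tested member, which fell, and the part of carried tissue in other results was not tested.

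The 5 double knockout mice differed from each other in what was high. Interferon-inducible GTPases, summed, were at 512, 294, 194, 1911 and 1498 CPM in double knockout replicates 1 to 5, against 102, 88.2, 99.5, 90.2 and 170.0 CPM in WT. Replicates 4 and 5 were far above the others, and replicate 3 was the lowest. Neutrophil genes were at 615, 444, 285, 854 and 478 CPM in the double knockout and 145, 149, 204, 278 and 276 CPM in WT, also highest in replicate 4 and lowest in replicate 3. Most of this sum is 1 gene, Ly6g, at 137, 143, 199, 261 and 268 CPM in WT and 498, 406, 221, 482 and 299.9 CPM in the double knockout (0.92 ± 0.22, adjusted p = 0.00302), which was highest in replicate 1 and overlapped between the groups. S100a8, S100a9 and Cd177, the other members tested, had no overlap, and their WT means were 0.327, 0.611 and 5.97 CPM. For plasma cell genes, given above, replicates 3 and 4 were the highest and replicate 2 the lowest. Enteric neuron and glia genes (238, 240.3, 255, 200.3 and 230.5 CPM, against 362, 338, 364, 345 and 341 in WT) and collagen and matrix genes (4327, 4931, 4618, 3703 and 4162 CPM, against 5942, 7108, 6803, 7022 and 5582 in WT) were lowest in replicate 4. No correlation is given over 5 mice. Replicate 4 was thus highest, or level with the highest, in these 3 immune lists, and replicate 3 was lowest in the GTPase and neutrophil lists but level with the highest in the plasma cell list. The summed smooth muscle, nerve and matrix lists in every double knockout library lay below every WT library, and the summed cholesterol list above.

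**Figure D5:**
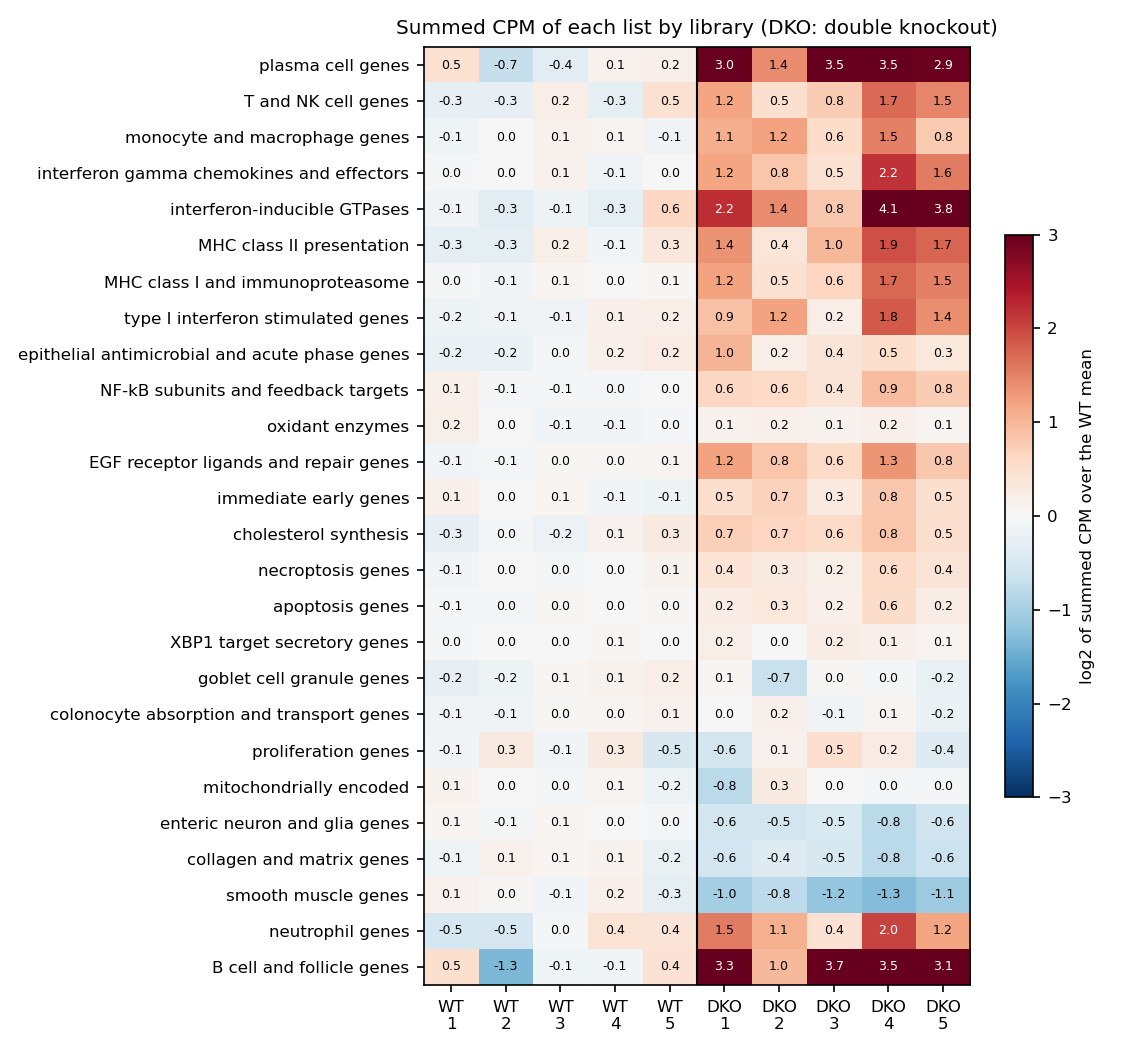
Summed CPM of each gene list (rows) in each library (columns), as log2 of the sum over its WT mean, printed in the cells and coloured from −3 to 3. Plasma cell genes, and B cell and follicle genes, whose sum is mostly the light chain Igkc that plasma cells make, are high in double knockout replicates 1, 3, 4 and 5, interferon-inducible GTPases most in replicates 4 and 5, and smooth muscle genes are low in all 5 double knockout libraries.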

How the data were processed

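RNA of the colon of single mice was sequenced from transcript 3′ ends (Lexogen QuantSeq, forward protocol, per the labels' protocols). The authors deposited 1 table of estimated counts per gene for all 30 libraries. Of its values above 0, 11.2% were not whole, and all were rounded before testing; no library's sum moved by more than 0.0317%. The submitters' processing notes name cutadapt 3.2, Subread, featureCounts 2.01, R 4.0.0 and GRCm38 (mm10). For the annotation release and the strand setting the sources used here give nothing. The 92 spike-in rows held 0 reads and were left out, and 260 of 55487 gene identifiers had no symbol and took 0.0190% of reads.

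All 30 libraries entered 1 edgeR 4.0.16 quasi-likelihood fit (R 4.3.3, limma 3.58.1) with 1 term per genotype, TMM scaling and edgeR's filter on low counts with a minimum of 10 reads. The double knockout was set against WT, with Benjamini-Hochberg adjusted p under 0.05 as the threshold. The procedure was tested on simulated data. Totals of 3693330 to 5823059.7 reads made 1 read worth 0.172 to 0.271 CPM, which limits genes of few reads. Motif matches used RefSeq promoters of GRCm38.p6 outside chromosome 18.

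Named are the targeted genes, in each direction the 10 genes of smallest p at least 2-fold apart with no overlap and the 10 with the largest difference in mean CPM, and the 4 members of smallest p of each list. Immunoglobulin and T cell receptor segments, mitochondrially encoded genes and unnamed gene models were not taken by smallest p or largest difference. Other genes named in the text, and those shown in figures, were chosen after their values were seen and were recomputed under the same alternatives. Some genes are not reported here. The groups and gene lists were chosen with earlier results of these data known. Alternatives were DESeq2 1.42.0 and its size factors, limma voom with quality weights, library totals with no TMM, 2 other low-count filters, a fit of only the 10 libraries, the replicate number as a block, sex as a term, and leaving out each library.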

Additional observations from a re-analysis of the deposited data

Results flagged for a closer look

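Some levels lay far from the other 4 libraries of their group, with a gap of over 0.71 of the group's range on the log2(CPM + 0.5) scale. Levels with a group mean under 5 CPM were not examined. Chance flags about 1 in 20 groups, and here this held for 25 of 534 gene levels and 7 of 116 summed list levels.

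Double knockout replicate 2 was the lowest of its group for antibody and defence genes. It held Igha at 1709 CPM, Igkc at 710.9 CPM, the B cell coactivator Pou2af1 at 7.669 CPM, Slpi at 140.3 CPM and the phospholipase gene Pla2g2a at 8.947 CPM. The annotation gives Pla2g2a as a polymorphic pseudogene, and the strain is not given. The summed plasma cell genes stood there at 2444 CPM and the B cell and follicle genes at 929 CPM. It was also lowest for Nkd1 at 6.135 CPM and the chaperone partner Dnajb1 at 34.0 CPM, and highest for Ddr2 at 62.63 CPM and Myc at 12.53 CPM. Double knockout replicate 1 was lowest for the summed mitochondrially encoded genes, at 97600 CPM, and for the gap junction gene Gja1, at 18.15 CPM. It was highest for Tradd at 175.6 CPM and for S100a6, a calcium-binding protein, at 7037 CPM. The call of S100a6 was lost without that library, as it was under 6 other alternatives (adjusted p of 0.0588 to 0.119 over these 7, by edgeR). Double knockout replicate 3 was lowest for Duoxa2, at 26.09 CPM.

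WT replicate 5 was the highest of WT for interferon genes, with Gbp7 at 59.53 CPM, the interferon factor Irf8 at 149.2 CPM and the summed GTPases at 170.0 CPM. It was the lowest for Acta2 at 1517 CPM, S100b at 5.459 CPM, Cd59a at 44.71 CPM, Anxa1 at 40.29 CPM, Nkd1 at 7.798 CPM, Srp19 of the signal recognition particle at 41.59 CPM and the summed eosinophil and mast cell genes at 24.69 CPM. WT replicate 1 was highest for Nfkbia at 317.3 CPM and the summed NF-kB list at 949 CPM. WT replicate 3 was highest for the summed small intestine and Paneth cell genes at 461.7 CPM and lowest for Insig1 at 6.664 CPM. WT replicate 4 was highest for Casp8 at 58.71 CPM, and WT replicate 2 lowest for the ribosomal protein gene Rplp1 at 927.3 CPM.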

How the results depend on the processing

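The 3298 genes that differed became 3294 with DESeq2 size factors, 3338 by DESeq2, 3357 by limma voom, 3269 with library totals, 3044 with the stricter filter, 2941 with no filter, 2629 in a fit of only the 10 libraries and 3343 with sex as a term. Leaving out 1 library gave 2585 to 3362 genes, of which 1309 to 1739 were higher and 1276 to 1623 lower, and the lowest counts came without double knockout replicate 4. Of 217 genes that the naming rule took and that passed, 189 kept their call and direction under every alternative that gave a value. Among called genes of the text, Apoa1 and Reg3b turned from lower to 0.86 and 0.53 on the log2 scale without WT replicate 3, with −3.89 and −6.07 at the other end when a library was left out. The cause was not tested.

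Of genes not called, values turned sign as follows when a library was left out, given as the lowest and highest log2 fold change. They were −0.10 and 0.0081 for Agr2, −0.12 and 0.037 for Cflar, −0.23 and 0.0061 for Dnajb9, −0.10 and 0.24 for Gata2, −0.49 and 0.0095 for Mki67, −0.19 and 0.91 for Ms4a1, −0.20 and 0.047 for Pdia6, −0.15 and 0.035 for Ripk1, and −0.20 and 0.023 for Tff3. By limma voom Cflar was at 0.039 and Gata2 at −0.15.

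Same-numbered replicates did not deviate together, with correlations of −0.09, 0.10, 0.13, −0.01 and 0.13 for replicates 1 to 5, so the numbers were not read as pairs. With the replicate block 3145 genes differed, 1655 higher and 1490 lower, and 4 genes taken by the naming rule lost their call. Depth limits genes of few reads: 209 genes called higher had under 10 reads a library on average in WT, and 196 called lower had as few in the double knockout.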
